A study of Homo sapiens with 9 samples.

Results

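The small nucleolar RNA (snoRNA) host genes described here were GAS5, SNHG1, SNHG5, SNHG6, SNHG7, SNHG8, SNHG12, SNHG15, SNHG16 and ZFAS1. They were chosen by name and mapped to Ensembl identifiers, and all 10 were found among the 57338 genes of the expression table. By the labels, their RNA was measured in human HEK293T cells, an embryonic kidney line. They were transfected with the empty vector, which encodes enhanced green fluorescent protein (EGFP) only, or with a protamine construct. The constructs were fusions of EGFP with human protamine 1 (hPRM1) or protamine 2 (hPRM2). Cells with high EGFP signal were sorted 3 days after transfection. Each of the 3 conditions had 3 libraries, 9 in all, made with the QuantSeq kit that reads the 3′ ends of polyadenylated RNA. The expression was transient, and by the labels all groups derived from 1 cell line. A check of the libraries against their labels is given below. The labels do not say whether replicates were separate cultures, so that the p-values measure the spread between these libraries only. Values are in RPKM, the reads of a gene per kilobase of its length and per 1000000 (1 M) reads of the library.

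A snoRNA host gene is transcribed by RNA polymerase II and spliced, and the snoRNAs are cut out of its introns. The snoRNAs then join core proteins to guide the chemical modification of ribosomal RNA in the nucleolus, whereas the spliced host RNA is often exported, engaged by ribosomes and removed by nonsense-mediated decay. Many host genes start transcription at a cytosine followed by pyrimidines, a 5′ terminal oligopyrimidine (TOP) sequence, which they share with the genes for ribosomal proteins and translation factors. Protamines are the small basic proteins that replace histones in sperm chromatin, and the comparisons asked how the host RNAs differed between cells given a protamine and cells given EGFP alone.

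In the GENCODE 29 annotation of GRCh38, the 10 genes lie on 9 chromosomes. GAS5 (ENSG00000234741) lies on chromosome 1 from 173863900 to 173868882 on the minus strand, and SNHG12 (ENSG00000197989) on the same chromosome and strand from 28578538 to 28583132. SNHG8 (ENSG00000269893) lies on chromosome 4 from 118278709 to 118279823 and SNHG16 (ENSG00000163597) on chromosome 17 from 76557766 to 76565348, both on the plus strand. ZFAS1 (ENSG00000177410) lies on chromosome 20 from 49278178 to 49295738 on the plus strand. SNHG1 (ENSG00000255717, chromosome 11), SNHG5 (ENSG00000203875, chromosome 6), SNHG6 (ENSG00000245910), SNHG7 (ENSG00000233016, chromosome 9) and SNHG15 (ENSG00000232956, chromosome 7) are on the minus strand.

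The sequences around the transcription start are shown because the TOP sequence is the feature that these genes are known to share. RefSeq promoter sequences (GRCh38.p14) were held for 8 of the 10 members, not for SNHG6 and SNHG15. Each line gives 50 bases on the strand of the gene, 20 before the RefSeq start and 30 from it, and capitals mark a C followed by at least 4 further pyrimidines (C or T) whose first base lies between 5 bases before the start and base 10 after it.
SNHG5, chr6:85678704-85678753, minus strand: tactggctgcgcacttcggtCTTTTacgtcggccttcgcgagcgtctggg
SNHG7, chr9:136728155-136728204, minus strand: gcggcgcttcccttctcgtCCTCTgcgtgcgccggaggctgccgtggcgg
SNHG8, chr4:118278742-118278791, plus strand: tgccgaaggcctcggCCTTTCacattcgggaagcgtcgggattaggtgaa
SNHG12, chr1:28581844-28581893, minus strand: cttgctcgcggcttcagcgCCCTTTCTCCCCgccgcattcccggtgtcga
SNHG16, chr17:76557744-76557793, plus strand: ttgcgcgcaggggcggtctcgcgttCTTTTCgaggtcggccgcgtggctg
ZFAS1, chr20:49278622-49278671, plus strand: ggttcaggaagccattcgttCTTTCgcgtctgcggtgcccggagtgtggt
GAS5, chr1:173869016-173869065, minus strand: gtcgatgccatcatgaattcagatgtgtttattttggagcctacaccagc
SNHG1, chr11:62855856-62855905, minus strand: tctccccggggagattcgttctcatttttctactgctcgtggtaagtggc

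The pyrimidine run was found in 6 of these 8 windows and in 23.2% of 35114 promoters of the RefSeq table, searched on the strand of the gene only. The window and the length of the run were set with the sequences of the members in view, so the count is a description. In SNHG5 and ZFAS1 the run began at the first transcribed base, and in SNHG12 it was longest, with 12 bases. The windows of GAS5 and SNHG1 held no such run at this RefSeq start. The RefSeq and GENCODE starts were 163 bases apart for GAS5, 464 for ZFAS1 and 1259 for SNHG12, and at most 53 for the other 5.

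Before the comparisons, the libraries were checked against their labels. PRM2 was above 0 in the 3 hPRM2 libraries only, whereas PRM1 was listed at 0 in all 9, so that the libraries labelled hPRM1 are named by their label. Of 6 marker genes of HEK293T cells, 5 (PAX2, LIN28B, IGF2BP1, NEFM and NEFL) were at 0 in all 3 libraries labelled hPRM1, in which the 6 summed to 0 to 0.306 RPKM, against 103 to 164 in the empty vector and 47.8 to 108 in hPRM2. Of 8 red cell markers, 7 were at 1 RPKM or above in all 3 libraries labelled hPRM1 and HBD was at 0 in 2 of them, and together the 8 made up 83.2% to 86.6% of the summed RPKM of those libraries, whereas HBB, HBD, ALAS2, AHSP and CA1 were at 0 in the other 6 libraries. All 7 neutrophil and monocyte markers (5609 to 6449 RPKM summed, against 0.284 to 2.27 in the empty vector) and all 5 platelet markers (319 to 560.4 against 3.85 to 13.5) were detected there as well. The 8 lymphocyte markers summed to 627 to 855 RPKM there and were all at 0 in the empty vector and hPRM2. The library numbers in the labels of these 3 libraries run in another series than those of the other 6, and this and the condition cannot be told apart. The part of these markers and of the library numbers in the results below was not tested. From the spacing of low RPKM values, the reads on genes were estimated at 7.9 to 11 M for the empty vector, 4.2 to 5.9 M under the hPRM1 label and 1.3 to 2.7 M for hPRM2.

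In the empty vector, SNHG8 was the highest member and SNHG1 the lowest, and together the 10 genes reached 5007 to 5800.1 RPKM per library. Because RPKM divides 3′ end reads by gene length, an order between genes depends on that length as well as on abundance. SNHG8, the host of SNORA24, averaged 1486 ± 266 RPKM (SD, n = 3), and its lowest library lay above every library of the next member. GAS5 (844 ± 34.7 RPKM), SNHG6 (839 ± 121), ZFAS1 (730.2 ± 98.9) and SNHG7 (603 ± 32.9) followed, and each overlapped the next in its range of libraries (SD, n = 3). SNHG16 (259.7 ± 15.4 RPKM), SNHG12 (236 ± 23.1), SNHG5 (189.9 ± 62.9) and SNHG15 (178 ± 29.3) made a lower step, again with overlapping neighbours and apart from SNHG7 above them (SD, n = 3). SNHG1, at 83.0 ± 17.8 RPKM (SD, n = 3), lay below all of these.

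**Figure D1:**
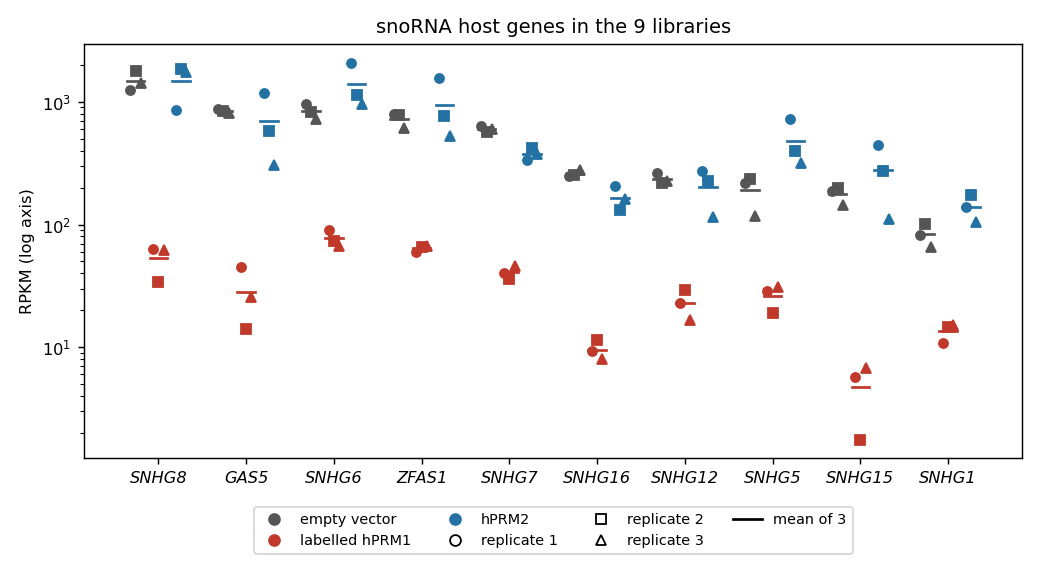
RPKM (log axis) of the 10 host genes in each of the 9 libraries, with horizontal lines at the mean of 3 libraries and marker shapes for replicate numbers. The libraries labelled hPRM1 lie below the empty vector and hPRM2 libraries for every member, while hPRM2 and empty vector libraries overlap for 6 of 10.

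All 10 host RNAs were lower in the libraries labelled hPRM1 than in the empty vector as deposited, and for none did the 3 libraries of one group overlap those of the other. The log2 fold changes of RPKM + 1 ran from -5.08 to -2.53, with a median of -3.67. All 10 passed the threshold (limma, at least a 2-fold change with a Benjamini-Hochberg adjusted p not above 0.05), with adjusted p between 4.42e-06 and 0.000255. In this comparison 62.5% of all tested genes were called lower and 12.9% higher, and the groups did not overlap for 80.8%, so the count of members alone does not set them apart. The median of all 13588 tested genes was -1.72, and relative to that median the 10 members lay at -3.36 to -0.81 on the log2 scale. Between 3.36% and 31.7% of the tested genes had a lower fold change than a given member. In bulk RNA, fewer cells of a type and less RNA per cell cannot be told apart.

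The deepest differences were those of SNHG15, GAS5, SNHG8 and SNHG16. SNHG15, the host of SNORA9, had 189, 199 and 144 RPKM in empty vector replicates 1 to 3 and 5.67, 1.77 and 6.76 RPKM in the libraries labelled hPRM1. The groups were far apart, with a log2 fold change of -5.08 ± 0.41 (SE, n = 3 per group, limma adjusted p = 4.7e-05). The lowest of these values rests on an estimated 7.44 reads per kilobase, the thinnest coverage of any member in any library.

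GAS5, named for its accumulation in growth-arrested cells and host of several box C/D snoRNAs, had 881, 839 and 812 RPKM with the empty vector and 44.7, 14.0 and 25.7 RPKM under the hPRM1 label. Its 3 empty vector libraries were within 1.08-fold of each other, and those labelled hPRM1 within 3.19-fold. The log2 fold change was -5.001 ± 0.39 (SE, n = 3 per group, limma adjusted p = 3.9e-05).

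SNHG8 had 1256, 1777 and 1424 RPKM with the empty vector and 62.7, 34.1 and 62.3 RPKM under the hPRM1 label. As for GAS5 and SNHG15, replicate 2 was the lowest of the libraries labelled hPRM1, and the log2 fold change was -4.82 ± 0.28 (SE, n = 3 per group). SNHG16, which hosts SNORD1A, SNORD1B and SNORD1C, had 247, 255 and 277 RPKM against 9.30, 11.4 and 8.04, a log2 fold change of -4.64 ± 0.19 (SE, n = 3 per group) and the smallest adjusted p among the members (limma, 4.42e-06).

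SNHG7, ZFAS1, SNHG6 and SNHG12 formed a middle range. SNHG7, whose introns hold SNORA17A and SNORA17B, had 638, 573 and 599 RPKM with the empty vector and 40.0, 36.3 and 46.0 RPKM under the hPRM1 label, a log2 fold change of -3.86 ± 0.16 (SE, n = 3 per group). ZFAS1, the host of SNORD12, SNORD12B and SNORD12C, had 795, 779 and 616 against 59.6, 66.0 and 66.6 RPKM, a log2 fold change of -3.48 ± 0.17 (SE, n = 3 per group). Both were steady among the libraries labelled hPRM1, within 1.27-fold for SNHG7 and 1.12-fold for ZFAS1.

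SNHG6, the host of SNORD87, had 967, 824 and 726 RPKM with the empty vector and 90.3, 74.1 and 67.2 RPKM under the hPRM1 label, a log2 fold change of -3.43 ± 0.19 (SE, n = 3 per group). It was the highest member in all 3 of those libraries, where it replaced SNHG8. SNHG12, which hosts SNORA44, SNORA61, SNORA16A and SNORD99, had 262, 219 and 226 against 23.0, 29.4 and 16.7 RPKM, a log2 fold change of -3.33 ± 0.24 (SE, n = 3 per group).

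The smallest differences were those of SNHG5 and SNHG1. SNHG5, the host of SNORD50B, had 219, 233 and 118 RPKM with the empty vector and 28.6, 19.1 and 31.2 RPKM under the hPRM1 label, a log2 fold change of -2.77 ± 0.33 (SE, n = 3 per group, limma adjusted p = 0.000255). SNHG1, whose introns hold SNORD22, SNORD25 to SNORD28 and SNORD30, had 82.7, 101 and 65.4 against 10.8, 14.5 and 15.1 RPKM, a log2 fold change of -2.53 ± 0.24 (SE, n = 3 per group). SNHG1, below all other members in the empty vector, was one of the lowest 3 under the hPRM1 label, where it averaged 13.5 ± 2.36 RPKM, SNHG16 9.57 ± 1.68 and SNHG15 4.74 ± 2.63 (SD, n = 3).

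The size of these differences depended on the scaling, and for 5 members the call did as well. Median-of-ratios rescaling divides each library by the median ratio of its genes to their geometric mean over libraries. It used the 7274 genes above 0 in all 9 libraries, and the filter on low values was then applied again. The median of the 13633 genes tested after it was 0.34, against -1.72 for the 13588 tested as deposited. Over the 12976 genes in both sets it was 0.24 after rescaling. Of the genes tested after rescaling, 23.6% were called lower and 35.5% higher. All 10 members stayed negative, from -2.78 to -0.10 with a median of -1.18, and all 10 stayed below the median gene. The calls of SNHG15 (-2.78), GAS5 (-2.53), SNHG8 (-2.33), SNHG16 (-2.22) and SNHG7 (-1.37) held, while ZFAS1 (-0.99), SNHG6 (-0.93), SNHG12 (-0.87), SNHG5 (-0.30) and SNHG1 (-0.10) no longer reached it. After quantile normalization, with a median gene of -0.30, 9 of 10 members were called lower and SNHG1 (-0.84) was not, where 32.3% of all tested genes were called lower.

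**Figure D2:**
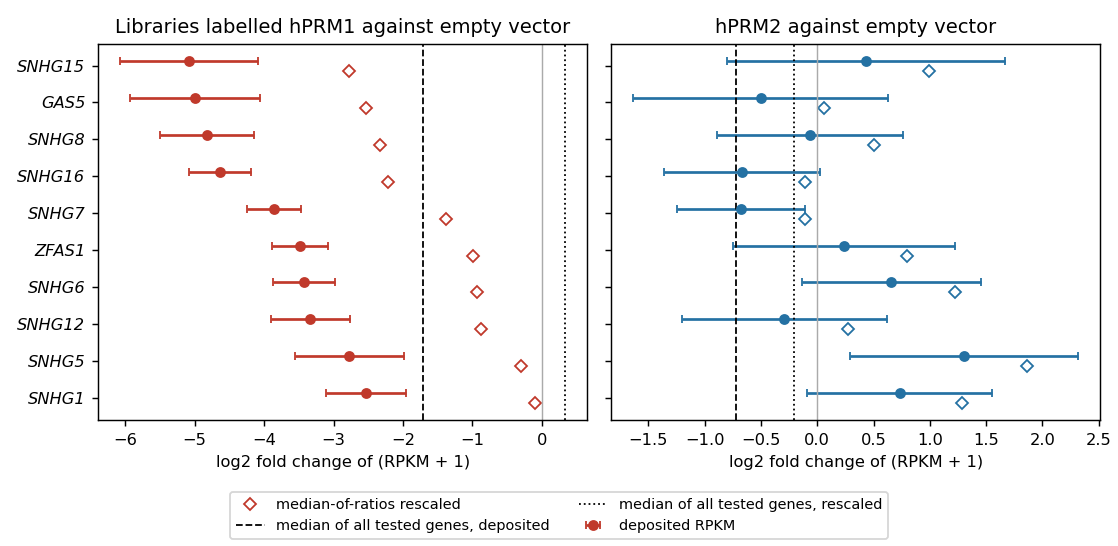
Log2 fold change of (RPKM + 1) of each member against the empty vector, for the libraries labelled hPRM1 (left) and hPRM2 (right), n = 3 libraries per group. Filled circles with 95% confidence intervals are the deposited RPKM, open diamonds the values after median-of-ratios rescaling, and dashed and dotted lines the median of all tested genes in each scaling. On the left all circles lie left of both medians, from -5.08 to -2.53, and all diamonds lie left of the rescaled median. On the right the circles straddle 0, from -0.68 to 1.30.

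In hPRM2, the host RNAs as deposited showed no common direction against the empty vector, although all 10 lay above the median gene. None of the 10 members was called in the comparison with the empty vector (limma, adjusted p between 0.130 and 0.914). An unadjusted p under 0.05 (limma) was found for 2 of the 10 members and for 3351 of all 13126 tested genes. Of all 13126 tested genes, 1.37% were called lower and 1.36% higher. The log2 fold changes ran from -0.68 to 1.30 with a median of 0.08, and 5 were negative and 5 positive. The median of all tested genes was -0.72, and all 10 members lay above it, by 0.04 to 2.02. The groups did not overlap for 4 members, against 35.9% of all tested genes.

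SNHG5 had the largest value of the 10, with 720.1, 397 and 318 RPKM in hPRM2 replicates 1 to 3. Every one of these lay above the highest empty vector library (233 RPKM), and the log2 fold change was 1.30 (95% confidence interval 0.29 to 2.32, n = 3 per group, limma adjusted p = 0.130). SNHG1 had 139, 174 and 105 RPKM, also above all empty vector libraries, with a log2 fold change of 0.73 (95% confidence interval -0.09 to 1.55, n = 3 per group).

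SNHG7 had 334, 424 and 375 RPKM in hPRM2, each below the lowest empty vector library (573 RPKM), a log2 fold change of -0.68 (95% confidence interval -1.25 to -0.11, n = 3 per group, limma adjusted p = 0.149). SNHG16 had 206, 131 and 160.0 RPKM, below all empty vector libraries, with a log2 fold change of -0.67 (95% confidence interval -1.36 to 0.02, n = 3 per group). Relative to the median gene both values were close to 0, at 0.04 for SNHG7 and 0.05 for SNHG16.

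The other 6 members overlapped the empty vector. SNHG6 had 2077, 1132 and 966 RPKM, a log2 fold change of 0.66 (95% confidence interval -0.14 to 1.45, n = 3 per group), and its replicate 3 lay just inside the range of the empty vector. ZFAS1 had 1561, 763 and 521 RPKM and a log2 fold change of 0.23 (-0.75 to 1.22, n = 3 per group). These 2 genes and the next 4 were not distinguishable from the empty vector at this depth and spread.

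GAS5 had 1189.7, 581 and 305 RPKM in hPRM2, a log2 fold change of -0.50 (95% confidence interval -1.63 to 0.63, n = 3 per group), so that 1 library lay above and the others below every empty vector library. SNHG15 spread similarly, with 446, 272 and 110.1 RPKM and a log2 fold change of 0.43 (-0.80 to 1.67, n = 3 per group). SNHG12 had 271, 227 and 114 RPKM and a log2 fold change of -0.29 (-1.20 to 0.62, n = 3 per group). SNHG8 ran the other way among the replicates, with its lowest value in replicate 1 (859.6, 1858 and 1736 RPKM, log2 fold change -0.07, 95% confidence interval -0.89 to 0.76, n = 3 per group).

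Of the 3 hPRM2 libraries, replicate 1 held the highest value of 7 of the 10 members. In that library GAS5 was 2.69-fold, ZFAS1 2.43-fold and SNHG15 2.33-fold above the mean of the other hPRM2 libraries, and SNHG8 was at 0.478 of it. Replicate 1 also had the most estimated reads on genes of the 3 hPRM2 libraries. Its RPKM over all genes summed to 3.8e+06, against 2.1e+07 and 1.8e+07 in replicates 2 and 3. The members made up 0.205% of that sum in replicate 1, and 0.028% and 0.026% in the others. The part of depth and of these sums was not tested. Without replicate 1 the log2 fold changes of SNHG8 (0.29), SNHG15 (-0.022) and ZFAS1 (-0.20) changed sign. GAS5 moved to -1.002 (limma adjusted p = 0.0599), and no member was called. After median-of-ratios rescaling the median over members was 0.65 and only SNHG7 and SNHG16 remained negative (both -0.11), where the median gene was at -0.21, and after quantile normalization the members' median was -0.11. No member was called in either scaling.

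**Figure D3:**
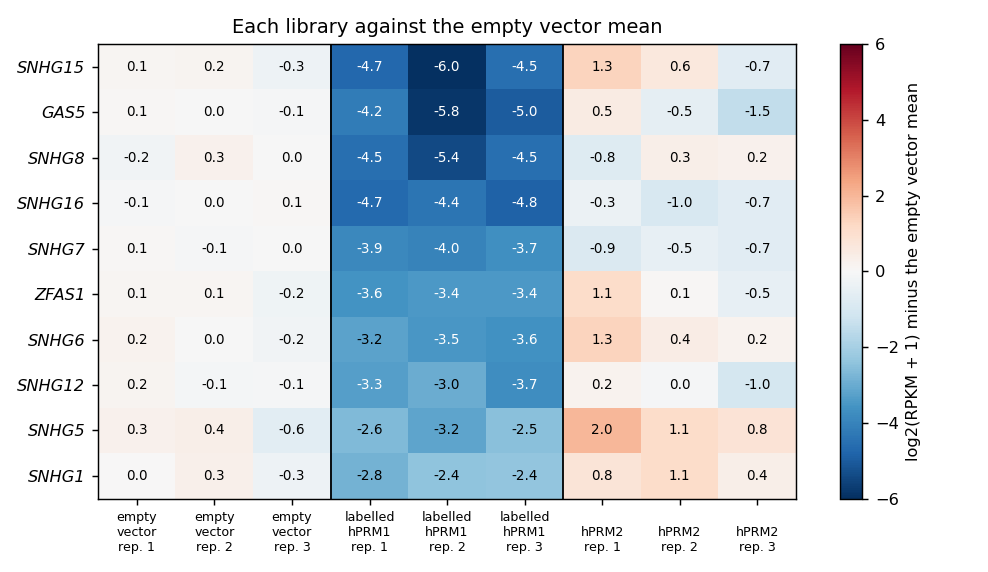
log2(RPKM + 1) of each member in each library minus its mean over the 3 empty vector libraries, as a color scale with the value printed in each cell. Rows are ordered by the fold change in the libraries labelled hPRM1, which are all blue, while in the hPRM2 columns replicate 1 is the highest for 7 of 10 members.

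Compared directly with hPRM2, all 10 members were lower in the libraries labelled hPRM1, with log2 fold changes from -5.51 (SNHG15) to -3.04 (SNHG12) and a median of -4.02 (limma, n = 3 per group, adjusted p between 0.000221 and 0.00169). In this comparison 37% of the 11756 tested genes were called lower and 16% higher, the groups did not overlap for 62%, and the median gene was at -0.97. Relative to that median the members lay at -4.54 to -2.06. After median-of-ratios rescaling 9 of 10 were called lower, where 16.1% of all tested genes were, and SNHG12 (-1.14, limma adjusted p = 0.0601) was not. After quantile normalization all 10 were called. The order of members differed from that against the empty vector, since SNHG5 (-4.07) and SNHG6 (-4.08) had larger differences from hPRM2 than SNHG7 (-3.18), which had the reverse order against the empty vector. Both comparisons share the libraries labelled hPRM1.

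The level order within a group also differed. In the libraries labelled hPRM1, SNHG6 came first (77.2 ± 11.9 RPKM) and its range lay above that of ZFAS1 (64.1 ± 3.85). SNHG8 (53.0 ± 16.4 RPKM), SNHG7 (40.8 ± 4.93), GAS5 (28.1 ± 15.5), SNHG5 (26.3 ± 6.35) and SNHG12 (23.0 ± 6.36) followed with overlapping neighbours, and SNHG1, SNHG16 and SNHG15 came last (SD, n = 3). In hPRM2 all neighbours in the order overlapped, with SNHG8 (1484 ± 545 RPKM) first and SNHG1 (139 ± 34.5) last (SD, n = 3). The summed level of the 10 genes was 301 to 375 RPKM in the libraries labelled hPRM1 and 4710.0 to 7803.0 in hPRM2.

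Across the 9 libraries each member followed the mean profile of the other 9 with Pearson's r between 0.939 (SNHG5) and 0.989 (ZFAS1). These correlations are descriptions that rest mainly on the libraries labelled hPRM1, and 21.2% of 11399 genes had r above 0.9 with the mean profile of the members. The genes most like that profile were SKA2, a kinetochore component (r = 0.998), GAL, which encodes the neuropeptide galanin (0.998), TOMM5, a subunit of the mitochondrial import pore (0.998), RPL23A, a ribosomal protein gene that itself hosts snoRNAs (0.997), and NDUFS5, a subunit of respiratory complex I (0.997). RPL23A had 5337, 5950.1 and 4358 RPKM in the empty vector, 789, 692 and 699 under the hPRM1 label and 6890.4, 5202 and 4979 in hPRM2.

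Other snoRNA hosts were counted from lists of the pathway, some of whose genes (such as NOP56, NOP58, DKC1 and EEF1B2) are in more than 1 list. Of 39 genes that encode a protein and host snoRNAs, all were called lower in the libraries labelled hPRM1 against the empty vector, with a median log2 fold change of -3.29, where 62.5% of all tested genes were called lower. The largest differences were those of the ribosomal protein genes RPL23 (-5.38) and RPL17 (-5.37), and the smallest those of RPL27A (-1.02) and RPL10 (-1.40). After median-of-ratios rescaling 15 of the 39 were called lower and 2 higher, against 23.6% and 35.5% of all tested genes, RPL27A and RPL10 among the latter. Of 16 further non-coding hosts tested, 13 were called lower and 1 higher, with a median of -2.82. SNHG17 (-4.17) and SNHG21 (-3.85) were the lowest, and the gene called higher was SNHG14, a long transcript of the imprinted Prader-Willi region. It was listed at 0 in the empty vector and reached 3.79 ± 0.62 RPKM (SD, n = 3) under the hPRM1 label, through which alone it passed the filter on low values, so that a call could only be higher. After rescaling 2 of these 16 were called lower and 1 higher. Among 1151 tested long non-coding RNA genes, a list from which only the members were left out, 464 (40.3%) were called lower and 236 (20.5%) higher. The shares of all tested genes were 62.5% and 12.9%. The median of these 1151 genes was -0.80. A gene that passed the filter through 1 group only could be called in 1 direction only.

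The genes for proteins that snoRNAs bind were lower as deposited. All 8 core protein genes were called lower in the libraries labelled hPRM1 as deposited, against 62.5% of all tested genes, with a median log2 fold change of -3.21. The box C/D proteins were at -4.27 for NOP58, -3.96 for FBL (the methyltransferase fibrillarin), -2.80 for NOP56 and -2.14 for SNU13, and the box H/ACA proteins at -4.68 for NHP2, -3.23 for GAR1, -3.18 for DKC1 (the pseudouridine synthase dyskerin) and -2.87 for NOP10. After median-of-ratios rescaling NHP2, NOP58 and FBL were called lower, 3 of 8 against 23.6% of all tested genes, and SNU13 was positive (0.33). Of 11 assembly factors, 10 were called lower (median -2.99), led by ZNHIT3 (-4.55) and RUVBL1 (-3.97), and the splicing factor AQR (-0.60) was not. After rescaling 7 of the 11 were called lower and AQR was called higher.

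Genes of the decay and TOP pathways were also counted. Of 14 nonsense-mediated decay factors, which act on many host RNAs, 9 (64.3%) were called lower, a share close to the 62.5% of all tested genes, with UPF3B (-3.95) and MAGOH (-3.93) the lowest, and UPF2 was called higher (1.22). Their median of -1.26 lay above that of all tested genes, and after median-of-ratios rescaling 3 were called lower and 6 higher, where the shares of all tested genes were 23.6% and 35.5%. Of 17 TOP mRNAs for proteins other than ribosomal proteins, 16 were called lower (median -2.98), led by NPM1 (-5.86) and EEF1B2 (-5.27), and 4 were called lower and 1 higher after rescaling. Of 6 regulators of TOP translation, 5 were called lower, led by EIF4EBP1 (-5.18), and LARP1, which binds TOP sequences, was at -2.73. After rescaling 2 of the 6 were called lower and 1 higher.

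In hPRM2 no gene of these 7 lists was called against the empty vector as deposited (limma). An unadjusted p under 0.05 in the same limma fit was found for 3351 of all 13126 tested genes. At that threshold the counts were 6 of 39 protein-coding hosts, 3 of 15 other non-coding hosts, 1 of 8 core proteins and 1 of 11 assembly factors. They were 3 of 14 decay factors, 3 of 17 TOP mRNAs and 2 of 6 TOP regulators. After median-of-ratios rescaling the protein-coding hosts EIF4A1 (1.69), RPS12 (1.21) and RPS20 (1.02) were called higher, where 2.13% of all tested genes were. After quantile normalization EIF4A1 (1.09), RPS12 (-0.0012) and RPS20 (-0.21) were not called. With quantile normalization RPL7A (-1.45) and EEF2 (-1.34), the latter also a TOP mRNA, were called lower, where 0.533% of all tested genes were. After median-of-ratios rescaling RPL7A (-0.28) and EEF2 (0.068) were not called. These 5 genes are named because of those calls. As deposited, the list medians were 0.19 for protein-coding hosts, -0.08 for other non-coding hosts, -0.17 for core proteins and -0.19 for TOP mRNAs, each above the median gene (-0.72). Assembly factors (-0.49) and TOP regulators (-0.70) were also above it, and decay factors (-0.87) below it. Of 1241 long non-coding RNA genes other than the members, 40 (3.22%) were called lower and 72 (5.80%) higher as deposited. The shares of all tested genes were 1.37% and 1.36%.

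Genes that share a start region or overlap with a member did not all go the same way. ZNFX1, which encodes a zinc finger protein of antiviral defense, starts 248 bases from ZFAS1 on the other strand and overlaps it by 249 bases. It had 7.45, 6.42 and 5.09 RPKM with the empty vector and 72.3, 53.7 and 49.4 RPKM under the hPRM1 label. It was called higher, with a log2 fold change of 3.02 ± 0.24 (SE, n = 3 per group, limma adjusted p = 4.08e-05), where ZFAS1 was called lower as deposited, and it was called higher after median-of-ratios rescaling (5.30) and quantile normalization (4.64). In hPRM2 ZNFX1 had 7.69, 4.68 and 9.84 RPKM and was not called (0.16).

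SLC3A2, which encodes the heavy chain of amino acid transporters and starts 188 bases from SNHG1 in the opposite direction, was called lower together with SNHG1. It had 274, 294 and 367 RPKM with the empty vector and 14.5, 16.7 and 14.6 under the hPRM1 label, a log2 fold change of -4.26 ± 0.18 (SE, n = 3 per group), and its call held after median-of-ratios rescaling (-1.81) and quantile normalization (-2.51). In hPRM2 it had 131, 243 and 161 RPKM, below all empty vector libraries (-0.84, limma adjusted p = 0.177), whereas SNHG1 was above them.

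DIPK1B overlaps SNHG7 on the other strand by 2685 bases and was at 43.9 ± 8.82 RPKM with the empty vector and 0.160 ± 0.278 under the hPRM1 label, of which 2 were at 0 (SD, n = 3). TRNAU1AP, a selenocysteine tRNA factor gene that overlaps SNHG12 by 8 bases, was called lower there as deposited (-2.37), but not after median-of-ratios rescaling (-0.12). In hPRM2 it had 81.6, 101 and 73.6 RPKM against 26.4, 44.7 and 14.0 in the empty vector, a log2 fold change of 1.69 that was not called (limma adjusted p = 0.102), while SNHG12 was at -0.29. The partners of GAS5 on the other strand were low. ZBTB37, which overlaps it by 801 bases, averaged 0.646 RPKM with the empty vector and 0.757 under the hPRM1 label. GAS5-AS1 averaged 2.18 RPKM with the empty vector and was at 0 in the other libraries. ZBTB37 did not pass the filter as deposited and GAS5-AS1 passed through the empty vector only, so no test of them is given. The sources used here do not say whether reads were counted by strand, so reads from overlapping partners on opposite strands may not have been told apart.

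**Figure D4:**
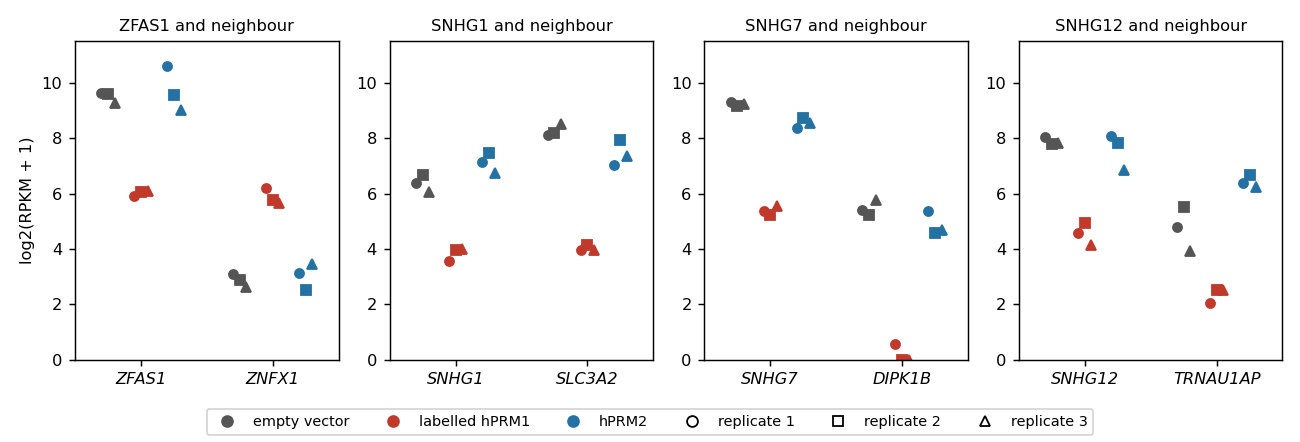
log2(RPKM + 1) of 4 members and of a neighbouring gene on the other strand in the 9 libraries, by group (color) and replicate number (shape). ZNFX1 is higher in the libraries labelled hPRM1, where ZFAS1 is lower, whereas SLC3A2, DIPK1B and, as deposited but near 0 after median-of-ratios rescaling (-0.12), TRNAU1AP are lower there together with their partner.

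The snoRNAs themselves were hardly seen in these libraries, which capture polyadenylated RNA. Of 26 annotated snoRNA genes found by their coordinates within 9 members, all but GAS5, 20 were listed at 0 in all 9 libraries. Inside SNHG7, an entry of SNORA17B had 901 RPKM in hPRM2 replicate 3 only, and ENSG00000281808 had 301 in empty vector replicate 1 only. Inside SNHG12, SNORA61 had 466 RPKM in empty vector replicate 3 and 290 in hPRM2 replicate 3. An entry of SNORA16A, also inside SNHG12, had 334 RPKM in empty vector replicate 2 only. SNORA24, inside SNHG8, had 218, 106 and 548 RPKM in the empty vector and was at 0 in the other 6 libraries. SNORA44, inside SNHG12, had 309, 179 and 251 RPKM in the empty vector, 76.9 in 1 library labelled hPRM1 and 0 in the other 5. Both passed the filter on low values through the empty vector only, so no test of them is given. With 131 and 132 bases, these genes are shorter than the 250 bases that the depth estimate subtracts from gene lengths, so their RPKM rest on few reads and cannot be compared with those of their hosts.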

How the data were processed

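The labels name HEK293T cells, and groups were taken from the sample titles. The authors processed the QuantSeq reads with nf-core/rnaseq (FastQC, Cutadapt, STAR and Salmon, versions not given in the sources used here; hg38 per the labels), removed mitochondrial genes and deposited RPKM values, that is counts divided by total reads and gene length. A library's RPKM therefore depends on what else takes up its reads. No read counts were used, and no per-sample column was left unused (0).

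The deposited RPKM values were tested in R 4.3.3 with limma 3.58.1 (lmFit, eBayes with trend and robust) on log2(RPKM + 1), which understates the change of low genes, for genes with at least 1 RPKM in at least 3 of the 6 libraries compared. Adjustment was by Benjamini-Hochberg over all tested genes, and calls needed an adjusted p of at most 0.05 and a fold of at least 2. The fit was run on data simulated from the empty vector values, with few genes changed. That setting differs from the comparison of the libraries labelled hPRM1, in which most genes were called, so it does not bear on those calls. Depth was estimated from steps of low values with 250 bases subtracted from GENCODE 29 lengths and covers counting on genes only. All 10 members are named, with up to 2 extremes at either end of each related list and all core proteins. Neighbours were named after their values were seen. Alternatives were leaving out each library, a block for the replicate number, 1 fit over all 9 libraries, the unmoderated per-gene test, no filter, a pseudocount of 0.1, and rescaling by quantile normalization or the median of ratios. 1 red cell marker of the planned list is not reported here and was left out of its sums. The members and lists were chosen with earlier results of these data known. Python 3.11.15, pandas 2.3.3, numpy 2.4.6, SciPy 1.17.1 and matplotlib 3.10.9 were used for the rest.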

Additional observations from a re-analysis of the deposited data

How the results depend on the processing

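Over 13 alternatives, all 130 values of single members in the libraries labelled hPRM1 against the empty vector kept their sign, and 6 lost the call: SNHG1, SNHG5, SNHG6, SNHG12 and ZFAS1 after median-of-ratios rescaling, which left 5 members called lower, and SNHG1 after quantile normalization. Against hPRM2, 129 of 130 values kept sign and call. Leaving out any 1 library left 10 members called lower in both comparisons. The members' median in the libraries labelled hPRM1 against the empty vector moved to -1.18 and -1.83 with the 2 rescalings. In hPRM2 no member was called under any alternative. Of the 130 values 8 changed sign: under median-of-ratios rescaling GAS5 (0.064), SNHG8 (0.50) and SNHG12 (0.27), and on leaving out 1 library SNHG8 (range -0.27 to 0.29), SNHG12 (range -0.54 to 0.076), SNHG15 (range -0.022 to 0.98) and ZFAS1 (range -0.20 to 0.59). The cause was not tested.

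All-gene counts for hPRM2 were 180 lower and 179 higher, but 17 and 72 with no filter, 76 and 254 after median-of-ratios rescaling, 70 and 342 after quantile normalization, 1618 and 507 in the fit of all 9 libraries, 0 and 0 with the per-gene test (2206 at an unadjusted p under 0.05), 1577 and 680 without hPRM2 replicate 1, and at most 10 and 41 without any other library. For the libraries labelled hPRM1 against the empty vector they were 8491 and 1750. They were 3214 and 4833 after median-of-ratios rescaling and 4388 and 3475 after quantile normalization. On leaving out a library they were 5606 to 8478 and 664 to 1816. The fewest lower genes were found without empty vector replicate 2, and the fewest higher without replicate 2 of the libraries labelled hPRM1. For the libraries labelled hPRM1 against hPRM2 they were 4355 and 1879, but 2100 and 4069 after median-of-ratios rescaling. They were 3104 and 2897 after quantile normalization and 2388 and 1098 with the per-gene test. On leaving out a library 402 to 2121 genes were called higher.

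Same-numbered libraries did not deviate together (correlations from -0.08 to 0.08), so the numbers are not treated as pairs. A replicate block gave 10 members called lower in both comparisons of the libraries labelled hPRM1. For hPRM2 against the empty vector it gave 0, with 8 genes of all called lower and 49 higher. By the estimate of reads on genes, the hPRM2 libraries held the fewest, unlike the averages of reads obtained that the study reports. A member rested on an estimated 166 to 5508 reads per kilobase in hPRM2 and on 655 to 15380 in the empty vector. Under the hPRM1 label it rested on 7.44 to 530.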
